A study of Mus musculus with 12 samples.

Results

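The 4 control vector libraries give the baseline transcriptome of mouse cortical neurons grown in a dish and infected with a lentivirus that carries no huntingtin fragment. They were found by their titles, which begin with "Control vector", and make up 4 of the 12 libraries of the study. The neurons came from Swiss Webster embryos at embryonic day 16, received virus after 5 days in vitro and were lysed after 10 days in vitro. Total RNA was depleted of ribosomal RNA before sequencing, so non-polyadenylated transcripts were also read. The other 8 libraries carry exon 1 of huntingtin with a normal or an expanded glutamine tract and were not analysed here. For control vector 1, 3 and 4 the virus is labelled "Empty vector", and for control vector 2 it is labelled "Control vector". A preparation number opens each description (22, 24, 26 and 27_1 in control vector 1 to 4), whose meaning the labels do not state. All 4 libraries carry the virus, so no uninfected culture is among them, and a primary culture is a mixture of the cells that the dissected cortex held. The lysates are bulk RNA: fewer cells of a type and less RNA per cell cannot be told apart.

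Cortical neurons in culture are mostly excitatory projection neurons with a minority of inhibitory interneurons, and they ripen over weeks as synapses form. Their receptors and channels are assembled from subunits of gene families, and the subunit in use sets the kinetics, calcium entry and drug sensitivity of the assembly. Many families are known to change their leading subunit between the embryonic and the adult brain. Glia, above all astrocytes and their precursors, are carried along in the dissection and can go on dividing unless they are suppressed.

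Levels are given as CPM, the counts of a gene scaled to a fixed library total, when 1 gene is followed across libraries. RPKM, which is CPM per kilobase of the gene's exons, is used when genes are compared with each other. Values are mean ± SD over 4 libraries, and 4 values in a row are control vector 1, 2, 3 and 4 in that order. The libraries held 23357966, 16788694, 20648256 and 12668531 counts. A count of 0 in all 4 libraries, out of 73463447 counts, allows a level of up to 0.0408 CPM (3 counts), a limit that covers counting error only. No test was run, because a single group has nothing to be compared with.

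Of 41388 genes in the deposited files, 13127 reached a mean of 1 CPM, and 12503 reached it in every library. A further 10698 genes had counts but stayed under 1 CPM, and 17563 genes (42.4%) had none. Together 828 genes held 50% of the summed CPM. The levels of the detected genes had a median of 26.0 CPM, with 66 genes at or above 1000 CPM. No pair of libraries was a duplicate: the chi-square per degree of freedom over genes was 11.3 or more between any pair.

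Single libraries stood apart from the others, and the results below are given with that in view. Control vector 1 held more of the long transcripts than the other 3 libraries. Over 10491 protein-coding genes with a mean of at least 5 CPM, its median log2 ratio to the mean of the other 3 was -0.41 in the quartile of shortest genes, -0.13 and 0.06 in the middle quartiles and 0.32 in the longest. In the other libraries these medians ran from 0.14 at most in the shortest to -0.22 at least in the longest quartile. Across genes, the ratio of control vector 1 followed gene length (Spearman rho 0.55) and not GC content (rho -0.01). In this library 192 genes lay at 2 times or more the highest of the others, among them the chromatin regulator Setd1b (28.9, 3.28, 3.54 and 4.26 CPM, a mean of 3.69 without this library). Control vector 2 had 0 such genes, control vector 3 had 19 and control vector 4 had 69, among them Fos and Bdnf. Pearson's r of log2 (CPM + 0.5) over detected genes was lowest between control vector 1 and 4 (0.956) and highest between control vector 2 and 3 (0.987). The source of these differences was not tested.

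**Figure D1:**
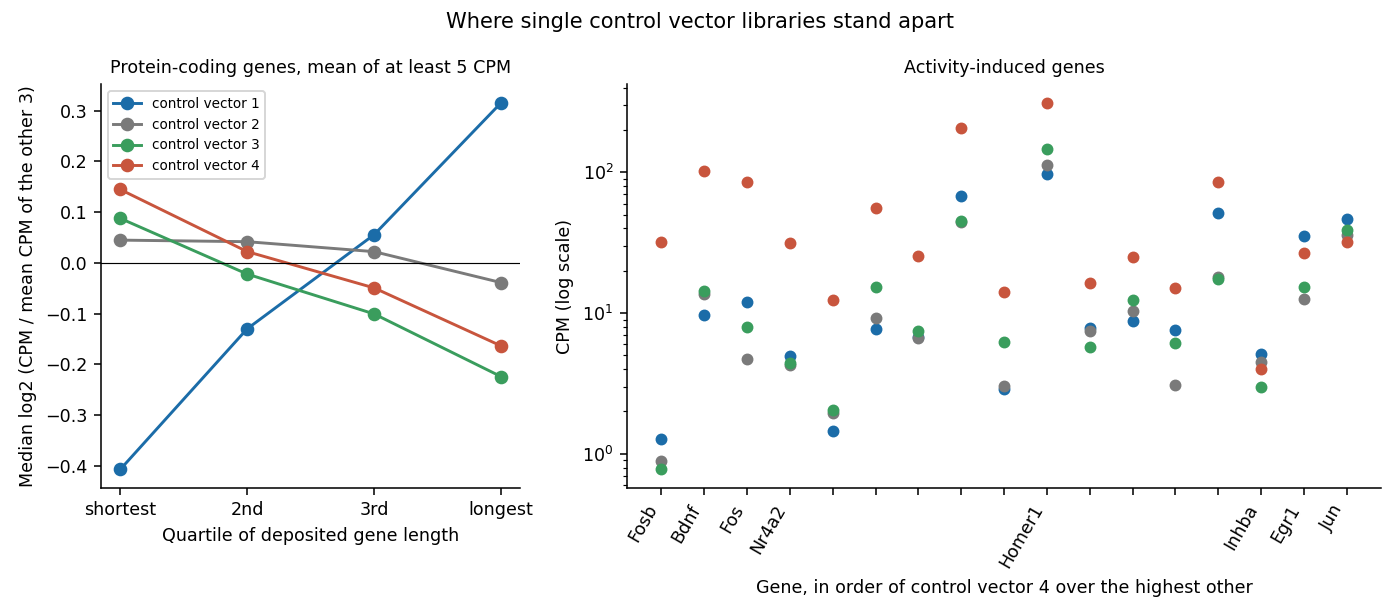
Left, the median log2 ratio of each library's CPM to the mean of the other 3, by quartile of gene length. Right, CPM (log scale) of 17 activity-induced genes (those named in the text are labelled), 1 point per library in the same colours. Control vector 1 climbs from -0.41 in the shortest to 0.32 in the longest quartile, and control vector 4 is the highest of the 4 libraries for 14 of the 17 genes. The 17 genes were chosen with earlier results of these data known.

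The libraries were made of protein-coding transcripts for the most part. Nuclear protein-coding genes took 91.3, 89.7, 83.5 and 90.4% of counts. Control vector 3 was lowest, and there the 2 mitochondrial ribosomal RNAs took 14.2% of counts, against 6.71, 7.80 and 7.15% in control vector 1, 2 and 4. mt-Rnr2, the large mitochondrial ribosomal RNA, was the most abundant gene in each library. Rn7sk, a nuclear RNA that holds back transcription elongation, took 0.242, 1.06, 0.629 and 1.02% of counts. It was lowest in control vector 1, the library rich in long transcripts, as was Rpph1, the RNA of ribonuclease P (92.2, 748, 1717 and 481 CPM).

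Genes of calcium signalling and of the cytoskeleton were among the most abundant protein-coding genes. The calmodulin gene Calm3 had a mean of 3854 ± 533 CPM and the beta-actin gene Actb one of 3616 ± 632 CPM. Close to them were Gpm6a, a membrane glycoprotein of growing axons, at 3479 ± 641 CPM and Map1b, a microtubule-binding protein of growth cones, at 3292 ± 1456 CPM. Map1b depended strongly on the library, with 5445, 2912, 2396 and 2412 CPM and control vector 1 far above the rest. Tuba1a, the alpha-tubulin of young neurons, had 1697, 3989, 3266 and 4022 CPM and was lowest in that same library. The microtubule regulators Dpysl2 (3025 ± 178 CPM) and Dpysl3 (2663 ± 410.3 CPM), the spectrins Sptan1 (2919.9 ± 276 CPM) and Sptbn1 (2355 ± 380.1 CPM), the tubulin Tubb5 (2677 ± 269 CPM) and the lipid desaturase Scd2 (2657 ± 278 CPM) were also among the 15 genes with most counts, as were mitochondrial RNAs and Rn7sk. When levels were taken per kilobase, Tuba1a led the protein-coding genes at 1969 ± 661 RPKM, then Calm3 at 1590.5 ± 220.02 RPKM, the ribosomal stalk protein Rplp1 at 1508 ± 462 RPKM and Actb at 1349.7 ± 236 RPKM. Calm2, the neuron-specific tubulin Tubb3, Gpm6a and mt-Co1 lay between 1191 ± 181 and 1011 ± 347 RPKM. The protease inhibitor Cst3 (877 ± 154 RPKM) and the microtubule regulator Stmn3 (827 ± 233 RPKM) closed the 15 genes with the highest RPKM. Levels of Tuba1a, Rn7sk, Rplp1 and mt-Co1 are uncertain, since 72.9, 68.1, 60 and 51.1% of the 50-base stretches of their longest transcripts also occur in transcripts of another gene.

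The RNA had the marker profile of neurons of the cerebral cortex with a sizeable glial share. All 15 pan-neuronal markers reached 10 CPM, with summed levels of 3300.3, 3699, 3462 and 3433 RPKM in the 4 libraries. Tubb3 led this list with 976, 1219.5, 914 and 1067 RPKM. The growth-associated gene Gap43 (678 ± 59.9 RPKM) and the microtubule regulator Stmn2 (535 ± 40.9 RPKM), both high in neurons that extend axons, came next. Rbfox3, the gene of the nuclear antigen NeuN of mature neurons, was near the bottom of the list at 10.8, 11.1, 14.0 and 10.1 RPKM, and Dcx, a marker of young neurons, stood at 51.2, 32.1, 31.3 and 25.3 RPKM. The medium neurofilament gene Nefm (5.51 ± 0.967 RPKM) was lowest of the 15.

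Excitatory neuron markers were all detected, 20 of 20, with a summed level of 781 ± 48.1 RPKM. Mef2c, a transcription factor of excitatory neurons, led with 296, 266, 227 and 307 RPKM, followed by the postsynaptic gene Nrgn (154 ± 34.8 RPKM) and the vesicular glutamate transporter Slc17a7 (96.2, 90.7, 85.5 and 114 RPKM). The list holds 11 genes that are also in the 2 layer lists. The 10 upper layer genes had a median of 11.9 RPKM and the 10 deep layer genes one of 4.63 RPKM. Lhx2 (24.5 ± 2.60 RPKM) and Rasgrf2 (19.2 ± 3.26 RPKM) led the upper layers. The deep layer genes were led by Ldb2 (50.8, 39.2, 32.5 and 22.2 RPKM) and Ntsr1 (29.2, 24.1, 17.5 and 19.1 RPKM), a receptor gene of corticothalamic cells, with Tle4 next at 7.18 ± 1.95 RPKM. Of the regulators on the deep layer list, Fezf2 had 4.60 ± 0.788 RPKM, close to the list's median, Bcl11b 2.45 ± 0.591 RPKM and Foxp2 0.177 ± 0.116 RPKM. Tbr1 and Sox5, also on that list, are not reported here. Fezf2 and Bcl11b were named here after their values were seen, as was Foxp2.

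Inhibitory neuron markers were lower in sum. Of 20 marker genes 18 reached 1 CPM, 2 of them 100 CPM, and the list summed to 177 ± 8.02 RPKM with a median of 2.97 RPKM. Not every member is given here. Sst, the somatostatin gene of a main interneuron class, had 18.0, 17.0, 20.2 and 14.1 RPKM, and Gad1, a GABA-synthesising enzyme, had 14.4, 14.1, 14.3 and 19.3 RPKM. Slc17a7 stood 11.8, 10.4, 14.0 and 10.7 times as high as the vesicular GABA transporter Slc32a1. Pvalb, which marks an interneuron class that matures late, had 2, 2, 15 and 3 counts and a mean of 0.281 ± 0.285 RPKM (chosen after its values were seen).

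Marker genes of neurons outside the cortex differed widely in level. Of 14 striatal genes, 10 reached 1 CPM, and the list summed to 48.7 ± 4.10 RPKM. Its leading member, which is not reported here, held most of that sum, and without it the sum was 20.1 ± 2.98 RPKM. Among the 10 were Foxp1 (7.496 ± 2.67 RPKM) and Meis2 (5.08 ± 0.526 RPKM), both of which are also active in cortex. Several others were low: the dopamine receptor genes Drd2 and Drd1 had 1.83 ± 0.659 and 1.26 ± 0.258 RPKM, and the developmental regulators Ebf1, Six3 and Isl1 had 7, 3 and 1 counts over the 4 libraries. Of 18 genes of dopamine, serotonin, noradrenaline, acetylcholine, hypothalamic or spinal neurons, 2 reached 1 CPM. These were Dbh (0.795, 0.597, 0.666 and 0.968 RPKM) and Slc6a3 (0.582, 0.741, 0.547 and 1.12 RPKM), and Tph2 was next with 0.296 ± 0.0537 RPKM. Oxt was at 0 counts. Cajal-Retzius cells, which line the surface of the embryonic cortex, share Calb2 (13.6 ± 2.69 RPKM) and Reln (6.85 ± 1.81 RPKM) with interneurons. Of the other genes on their marker list, Ndnf had 0.664 ± 0.119 RPKM, Trp73 had 18 counts in all and Lhx1 had 0.

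Astrocyte genes were the second largest group. All 20 astrocyte markers reached 1 CPM, and their summed RPKM came to 55.4, 44.5, 49.9 and 58.0% of that of the pan-neuronal list. Apoe, the lipid carrier that astrocytes secrete, had 624, 469, 575 and 618 RPKM. Ndrg2 (355, 348, 327 and 407 RPKM) and the glycolytic enzyme Aldoc (169, 265, 239 and 307 RPKM) came next. Lower members of the list included Aqp4 and Gfap. Aqp4, the water channel of astrocyte endfeet, had 20.01, 10.9, 11.6 and 15.3 RPKM, and Gfap, the astrocyte intermediate filament, had 12.4, 3.06, 3.43 and 3.84 RPKM, with control vector 1 far above the others. Without control vector 1 the mean of Gfap was 3.44 RPKM.

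RNA of the oligodendrocyte lineage was mainly that of precursor genes. All 6 precursor genes were detected, with Olig1 at 38.3, 43.4, 61.5 and 50.6 RPKM, the growth factor receptor Pdgfra at 56.0, 34.3, 29.5 and 39.8 RPKM and Olig2 at 39.9, 35.5, 37.4 and 28.6 RPKM. The myelin genes of mature oligodendrocytes were low. Cnp led that list (15.1 ± 3.54 RPKM), Mbp had 2.94, 1.70, 4.70 and 1.92 RPKM and was highest in control vector 3, and Opalin and Aspa had 0 counts. The list's median was 0.266 RPKM against 30.4 RPKM for the precursors.

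Marker genes of blood-derived, vascular and connective cells were low. Microglia, the resident immune cells of the brain, have 16 genes on their list, of which 3 reached 1 CPM, with a summed level of 11.8 ± 3.51 RPKM over the list. Aif1 (4.91 ± 2.41 RPKM) and Cd68 (1.48 ± 0.677 RPKM) are among the 3. Of the rest, Cx3cr1 had 2, 4, 3 and 6 counts, and Tmem119 and Siglech had 0. Of 11 endothelial genes, Slc2a1, a glucose transporter of many cells, accounted for nearly all of the sum, which was 13.4 ± 4.13 RPKM with it and 0.344 ± 0.118 RPKM without it. Pecam1 had 0.158, 0.220, 0.0933 and 0.228 RPKM, Tek 0.0605 ± 0.0356 RPKM and Ly6c1 0 counts. Fibroblast and mural genes summed to 7.82 ± 4.03 RPKM, led by Fn1 (2.24 ± 2.02 RPKM), Postn (1.82 ± 0.727 RPKM) and Pdgfrb (1.56 ± 1.13 RPKM). Without control vector 1 the means of Fn1 and Pdgfrb were 1.24 and 1.01 RPKM. The ependymal and choroid list was led by Foxj1 (1.10 ± 0.284 RPKM), Folr1 (0.601 ± 0.133 RPKM) and Ttr (0.130 ± 0.220 RPKM, 0.0216 without control vector 1). No erythroid gene reached 1 CPM: Alas2 had 0.364 ± 0.202 RPKM, Hba-a1 5 counts, and Hba-a2, Hbb-bt and Hbb-y 0, 0 and 0, of which the first 2 share 86.9% and 58.3% of their 50-base stretches with another gene.

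Genes of progenitors and of dividing cells differed widely in level. The neural progenitor list summed to 486 ± 68.8 RPKM, and to 110 ± 2.18 RPKM without Fabp7, its leading gene. Fabp7, a lipid-binding protein of radial glia and astrocytes, had 275, 392, 418 and 419 RPKM, and the filament gene Vim had 60.4, 64.4, 50.8 and 63.7 RPKM, with Sox2 next at 19.2 ± 3.53 RPKM. Pax6 had 1.12, 0.840, 0.841 and 0.729 RPKM and Eomes, named after its values were seen, 0.0856 ± 0.0810 RPKM. Both lay below the progenitor list's median of 4.46 RPKM, and 12 of the 13 genes on that list reached 1 CPM. All 14 proliferation genes reached 1 CPM. Pcna had 18.0 ± 2.75 RPKM, Mcm5 8.85 ± 2.23 RPKM, Top2a 6.61 ± 0.333 RPKM and Mki67 4.22, 1.797, 1.98 and 1.87 RPKM. Pcna also acts in DNA repair, and 31.8% of its 50-base stretches are shared with another gene.

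**Figure D2:**
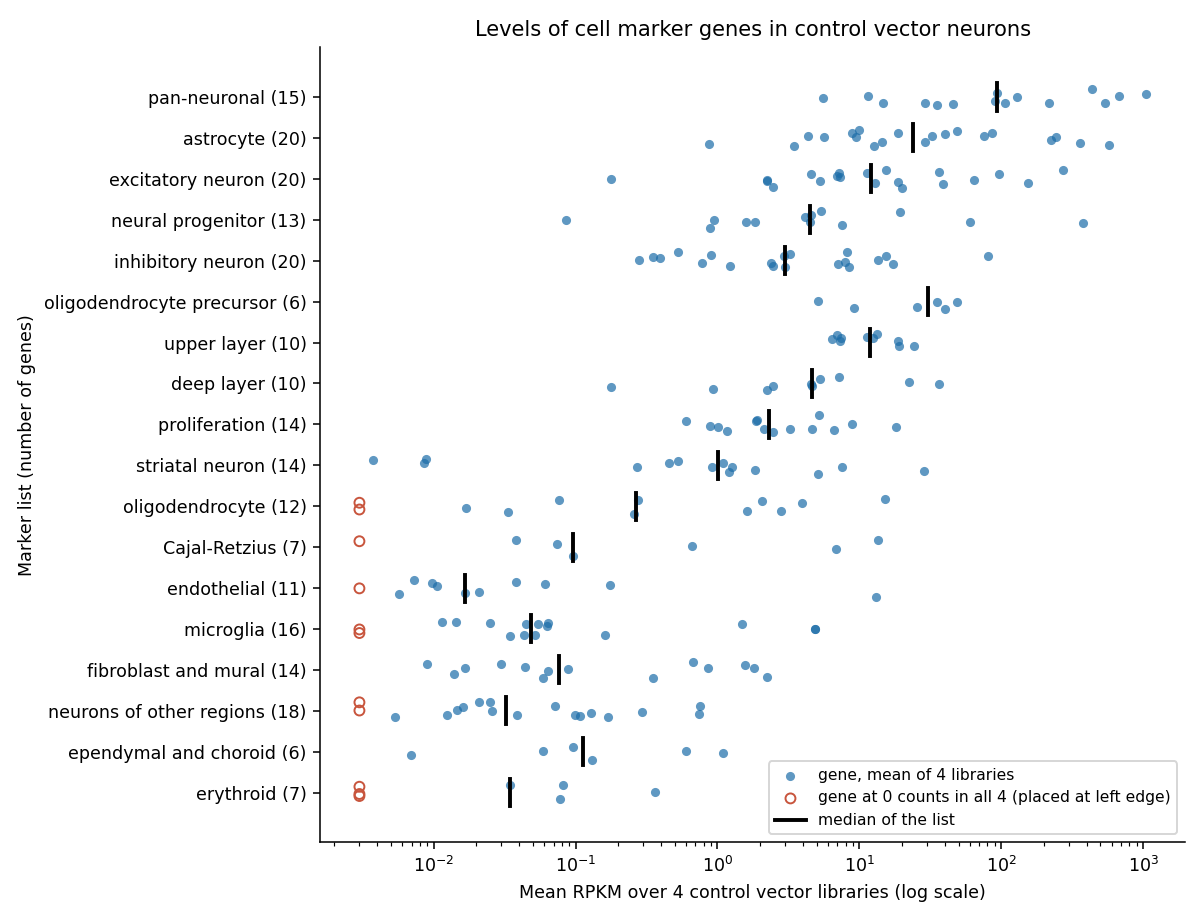
Mean RPKM (log scale) of each gene of 18 cell marker lists, ordered from the highest summed level at the top. Blue points are genes, open red circles are genes at 0 counts in all 4 libraries, and black bars are list medians. The medians of the pan-neuronal, oligodendrocyte precursor, astrocyte, excitatory and upper layer lists lie between 93.9 and 11.9 RPKM. Those of the fibroblast and mural, microglia, erythroid, other-region and endothelial lists lie between 0.0767 and 0.0167 RPKM.

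Receptors and channels were covered by 260 genes in 42 families. Of these, 186 genes reached 1 CPM, 67 had counts under that level and 7 had none. In 27 families a single member held over 50% of the family's summed RPKM, and in 34 families the same member led in each of the 4 libraries. The leader by CPM, which is not corrected for length, was another gene in 6 families. These include the families that Chrm4, Drd2, Kcnc4, Kcnq5 and Kcnk9 lead by mean RPKM.

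Among the AMPA receptors, which carry fast excitation, Gria2 led with 120.1, 135, 129 and 149 RPKM (chr3:80684936-80802791, minus strand, GRCm38) and held 59.8 ± 2.95% of the family. Gria2 is the subunit that, after RNA editing, blocks calcium entry. Gria1 followed with 74.9, 68.5, 60.8 and 76.9 RPKM (31.5 ± 2.23%). The ranges of these 2 subunits did not overlap, and Gria4 (12.3 ± 0.640 RPKM) and Gria3 (7.05 ± 1.63 RPKM) trailed. The ratio of Gria2 to Gria1 was 1.60, 1.97, 2.13 and 1.94. The auxiliary subunits that set AMPA receptor gating were led by Cnih2 (93.1, 90.4, 132 and 93.8 RPKM), with Cnih3 (36.2 ± 3.25 RPKM), Cacng4 (28.9 ± 3.54 RPKM), Shisa9 (13.8 ± 3.42 RPKM), Cacng3 (12.1 ± 0.845 RPKM) and Shisa7 (21.5, 7.204, 5.12 and 7.38 RPKM) behind it. Shisa7 owed its place to control vector 1, without which its mean was 6.57 RPKM. Cacng7 and Cacng8 were at 0 counts, a reading taken up again with the absent genes.

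Of the NMDA receptors, which sense coincident activity, the juvenile subunit Grin2b led with 84.4, 29.1, 19.6 and 29.0 RPKM (chr6:135713232-136173511, minus strand). Control vector 1 lay at over 2 times any other library, and without it the mean fell from 40.5 ± 29.6 to 25.9 RPKM. The obligatory subunit Grin1 had 18.7, 16.3, 13.8 and 23.2 RPKM and Grin2a, the subunit of the mature synapse, 9.83, 6.92, 4.90 and 10.2 RPKM. Grin2b was above Grin1 and Grin1 above Grin2a in each library. Grin2b stood 8.58, 4.21, 4.01 and 2.86 times as high as Grin2a, with no overlap between the 2 genes' ranges. The size of this ratio depends on the length scaling: its mean was 4.91 by RPKM and 23.0 by CPM. Kainate receptors were led by Grik5 (42.5, 24.8, 18.9 and 23.4 RPKM, 63.9 ± 2.63%), an auxiliary-like subunit that needs a partner, ahead of Grik2 (6.74 ± 1.08 RPKM), Grik3 (7.96, 2.71, 2.15 and 2.38 RPKM, a mean of 2.42 without control vector 1) and Grik1 (2.78 ± 0.370 RPKM). Of their partner proteins Neto2 (36.2 ± 2.32 RPKM) exceeded Neto1 (6.48 ± 1.44 RPKM). The delta receptor gene Grid1 had 14.9 ± 3.13 RPKM. Among metabotropic receptors Grm5 led with 38.0, 33.7, 33.5 and 37.3 RPKM. Grm7 (23.8 ± 2.89 RPKM) and Grm3 (32.0, 18.1, 12.6 and 22.1 RPKM) changed places between libraries, and Grm2 lay at 5.58 ± 1.77 RPKM.

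GABA-A receptors are the chloride channels of fast inhibition. Among their alpha subunits Gabra5, found outside synapses and common in young neurons, led with 48.5, 42.2, 41.5 and 47.2 RPKM and held 38.1 ± 3.99% of the family. Among the other alpha subunits were Gabra2 (21.2, 29.5, 26.1 and 30.8 RPKM), Gabra4 (12.8, 15.6, 18.7 and 24.9 RPKM) and Gabra3 (15.7, 11.3, 10.7 and 12.2 RPKM). Gabra5 lay clear of these 3, the ranges of Gabra2 and Gabra4 overlapped, and so did those of Gabra4 and Gabra3. Of the beta subunits Gabrb2 had 27.7 ± 2.43 and Gabrb1 20.8 ± 4.48 RPKM, and the gamma subunit Gabrg1 had 6.17 ± 1.33 RPKM. Of the remaining subunits Gabrd had 6.04 ± 1.57 RPKM and Gabrq 0.784 ± 0.150 RPKM, while Gabrp and Gabrr3 were at 0 counts. The slow GABA-B receptor needs both of its subunits, and Gabbr1 (113, 90.03, 88.5 and 98.6 RPKM) exceeded Gabbr2 (72.9, 48.4, 39.8 and 51.3 RPKM) in each library. Glycine receptor RNA was nearly all Glrb (64.5 ± 7.26 RPKM), a subunit that opens no channel alone, with Glra2, the fetal alpha subunit, at 3.81 ± 1.24 RPKM.

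**Figure D3:**
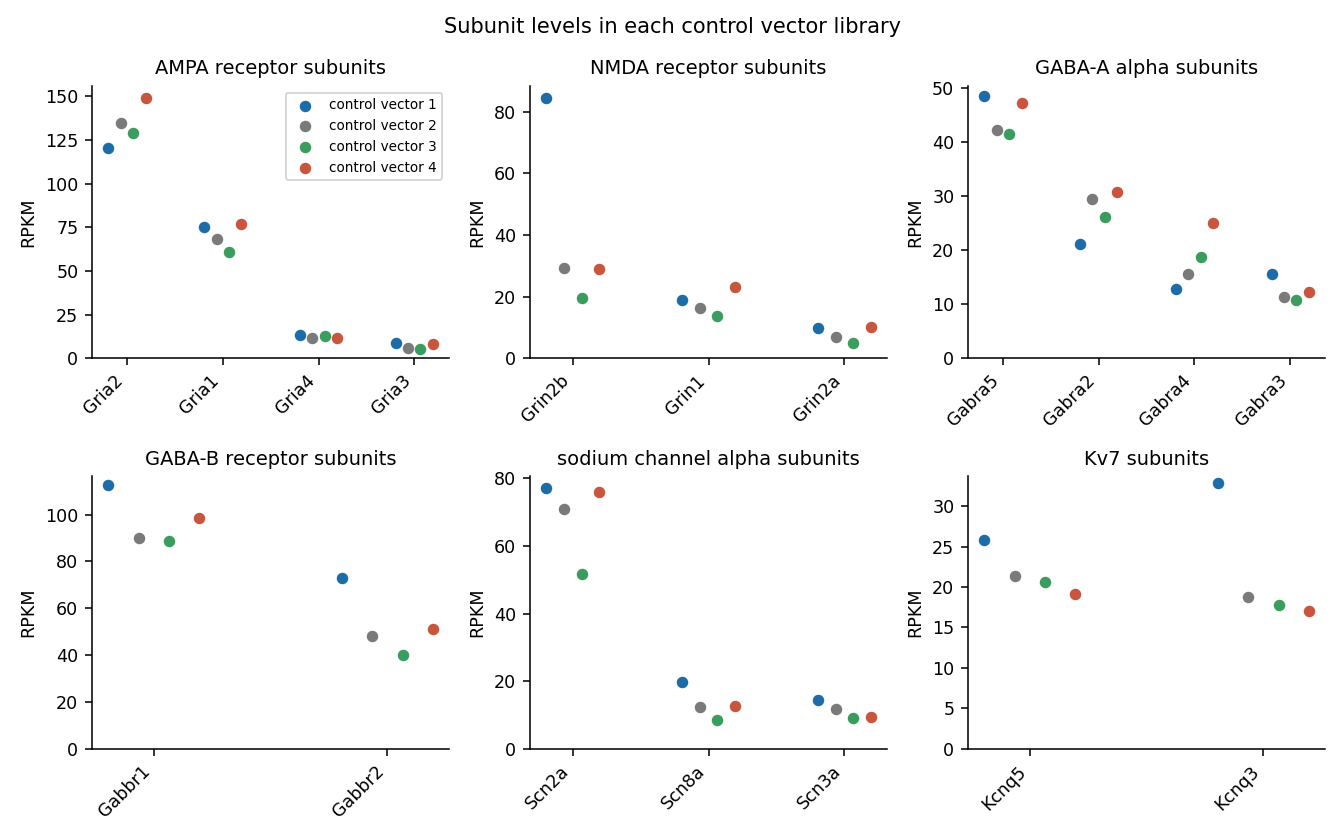
RPKM of the subunits named in the text for 6 families, 1 point per library. Gria2 (120.1 to 149 RPKM) lies clear of Gria1 (60.8 to 76.9 RPKM), Grin2b ranges from 19.6 to 84.4 RPKM with control vector 1 on top, and Kcnq5 and Kcnq3 overlap.

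Receptors for modulators were lower, and 35 of 70 members reached 1 CPM. The cannabinoid receptor gene Cnr1 had 55.0, 51.4, 44.9 and 51.3 RPKM and made up 99.9 ± 0.0649% of its pair, with Cnr2 at 1, 5, 0 and 1 counts. Adora1, an inhibitory adenosine receptor, held 95.4 ± 0.429% of its family at 26.3 ± 2.86 RPKM, ahead of Adora2b at 0.971 ± 0.181 RPKM. The nociceptin receptor gene Oprl1 held 93.9 ± 1.01% of opioid receptor RNA (27.1 ± 3.41 RPKM), Oprd1 had 1.70 ± 0.314 RPKM, and Oprm1, the mu receptor gene named after its values were seen, had 24 counts in all. Nicotinic receptors were led by Chrnb2 (21.9 ± 4.65 RPKM), Chrna7 (7.70 ± 0.797 RPKM) and Chrna4 (6.93 ± 2.51 RPKM), the parts of the common brain receptors, and Chrna9 was at 0. Muscarinic Chrm4 (13.4, 15.02, 13.1 and 27.1 RPKM) and Chrm1 (14.2, 11.5, 13.5 and 12.8 RPKM) could not be ranked, since Chrm4 led in 2 libraries, and Chrm3 was at 5.12 ± 0.530 RPKM. Serotonin receptors spread over Htr1a (2.99 ± 0.301 RPKM), Htr2a (2.41 ± 0.574 RPKM), Htr5a (2.17 ± 0.443 RPKM) and Htr7 (2.02 ± 0.412 RPKM), with overlapping ranges. Htr3a (0.732 ± 0.138 RPKM), Htr1b (0.703 ± 0.231 RPKM), Htr2c (0.565 ± 0.170 RPKM) and Htr6 (0.402 ± 0.0886 RPKM) were lower. Dopamine receptor RNA was Drd2 and Drd1 at the low levels given above, plus Drd4 at 0.255 ± 0.237 RPKM. Adrenergic receptors were led by Adra2a (6.04 ± 1.62 RPKM), Adra2c (4.24 ± 0.826 RPKM) and Adrb1 (3.06 ± 1.35 RPKM), with Adra1b and Adra1a at 1.15 ± 0.319 and 0.801 ± 0.297 RPKM and Adra2b at 0. Histamine receptors were Hrh3 (4.69 ± 0.602 RPKM) and Hrh1 (2.35, 2.36, 1.65 and 4.81 RPKM), the latter highest in control vector 4. The ATP-gated P2rx4 (1.58 ± 0.296 RPKM), P2rx3 (1.16 ± 0.133 RPKM) and P2rx6 (1.05 ± 0.322 RPKM) lay close together.

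Sodium channels, which fire the action potential, were led by Scn2a at 77.2, 70.9, 51.6 and 75.9 RPKM (chr2:65620857-65767447, plus strand), 69.7 ± 2.96% of the alpha subunits. Scn8a, the channel of the mature axon initial segment, had 19.7, 12.3, 8.6003 and 12.6 RPKM, and Scn3a, the embryonic channel, 14.5, 11.6, 9.12 and 9.48 RPKM. Scn2a stood 3.91 to 6.03 times as high as Scn8a. Of the beta subunits Scn3b had 64.0, 47.0, 45.6 and 37.3 RPKM and Scn2b 21.04, 30.5, 29.8 and 33.6 RPKM, with Scn3b the higher of the pair in each library. Calcium channels were led by Cacna1b, the N-type channel of transmitter release, at 47.5, 38.1, 27.97 and 27.4 RPKM. Cacna1i, Cacna1e and Cacna1h followed at 10.8 ± 4.11, 10.7 ± 5.20 and 9.29 ± 2.52 RPKM. The P/Q-type Cacna1a, which takes over release at many mature synapses, had 12.1, 6.34, 4.25 and 6.57 RPKM, and the L-type Cacna1c and T-type Cacna1g had 5.91 ± 2.36 and 5.50 ± 1.42 RPKM. Cacnb3 (48.1 ± 5.16 RPKM, 65.6 ± 2.49%) led the beta subunits before Cacnb1 (17.6 ± 1.88 RPKM) and Cacnb4 (6.43 ± 0.539 RPKM). Cacna2d1, a gabapentin target, led the alpha2delta subunits at 54.8 ± 6.99 RPKM before Cacna2d3 at 16.9 ± 3.31 RPKM.

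Potassium channels, which shape repolarisation and rest, included both evenly shared families and families with 1 main member. The Kv1 family was shared by Kcna1, Kcna6, Kcna2, Kcna4 and Kcna3 at 8.57 ± 2.08, 7.53 ± 1.14, 7.495 ± 1.62, 7.02 ± 1.02 and 6.403 ± 0.898 RPKM, and Kcna1 was first in 1 library. Kv7 channels, which carry the M-current, included Kcnq5 (25.8, 21.3, 20.7 and 19.1 RPKM) and Kcnq3 (32.9, 18.8, 17.8 and 17.0 RPKM), whose order changed between libraries. The Kv2 gene Kcnb2 had 5.02 ± 1.31 RPKM. The Kv3, Kv4 and Kv10 to Kv12 families each had the same leader in every library. Kcnc4 (13.3 ± 2.17 RPKM) led Kcnc1 (4.89 ± 1.34 RPKM) and Kcnc2 (3.60 ± 0.314 RPKM). Kcnd2 (13.7 ± 2.88 RPKM) led Kcnd3 (6.20 ± 1.29 RPKM), with their partners Dpp6 (19.5 ± 1.79 RPKM), Dpp10 (8.90 ± 0.905 RPKM), Kcnip3 (8.59 ± 0.990 RPKM), Kcnip4 (7.996 ± 0.429 RPKM) and Kcnip2 (6.62 ± 1.08 RPKM). Kcnh3 (47.8 ± 8.52 RPKM, 67.5 ± 3.43%) led the Kv10 to Kv12 genes before Kcnh5, Kcnh1 and Kcnh7 at 7.36 ± 0.972, 7.11 ± 2.17 and 5.19 ± 1.39 RPKM. The silent subunits, which modify Kv2 channels, were led by Kcnf1 (35.5, 34.6, 29.2 and 59.5 RPKM), Kcnv1 (16.3, 16.2, 20.3 and 24.8 RPKM) and Kcns2 (5.24 ± 1.72 RPKM). Kcng1 had 11.6, 2.13, 1.58 and 1.91 RPKM and a mean of 1.87 RPKM without control vector 1.

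Among calcium- and sodium-activated channels the large-conductance Kcnma1 (26.9, 14.3, 12.3 and 19.8 RPKM) and the small-conductance Kcnn1 (15.2, 23.5, 15.2 and 19.1 RPKM) each led in 2 libraries, with Kcnt2 and Kcnt1 at 12.9 ± 2.25 and 6.54 ± 1.53 RPKM. Kcnj4 was the leading inward rectifier (54.2, 83.1, 60.4 and 120.1 RPKM), ahead of the G-protein-gated Kcnj9 (17.5 ± 4.27 RPKM) and Kcnj3 (12.03 ± 1.93 RPKM), the glial Kcnj10 (15.7, 6.25, 5.56 and 9.68 RPKM) and Kcnj11 (7.33 ± 2.15 RPKM). The leak channels were led by Kcnk9 (44.6, 44.6, 22.8 and 38.7 RPKM), with Kcnk10 (23.0 ± 1.56 RPKM), Kcnk1 (12.3, 17.6, 14.4 and 29.5 RPKM), Kcnk2 (8.91 ± 1.40 RPKM) and Kcnk12 (8.83 ± 1.29 RPKM) next and Kcnk16 at 0. The pacemaker channels kept the order Hcn2, Hcn4 and Hcn3 in each library, at 16.3 ± 1.88, 11.8 ± 2.42 and 10.8 ± 2.08 RPKM, though neighbouring ranges overlapped. Calcium release channels were mostly Itpr1 (10.5 ± 2.05 RPKM, 86.8 ± 2.34%) before Itpr2 (1.36 ± 0.276 RPKM), and Ryr2 (16.8, 9.30, 6.10 and 11.3 RPKM, 74.5 ± 2.67%) before Ryr3 (3.47 ± 1.63 RPKM).

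**Figure D4:**
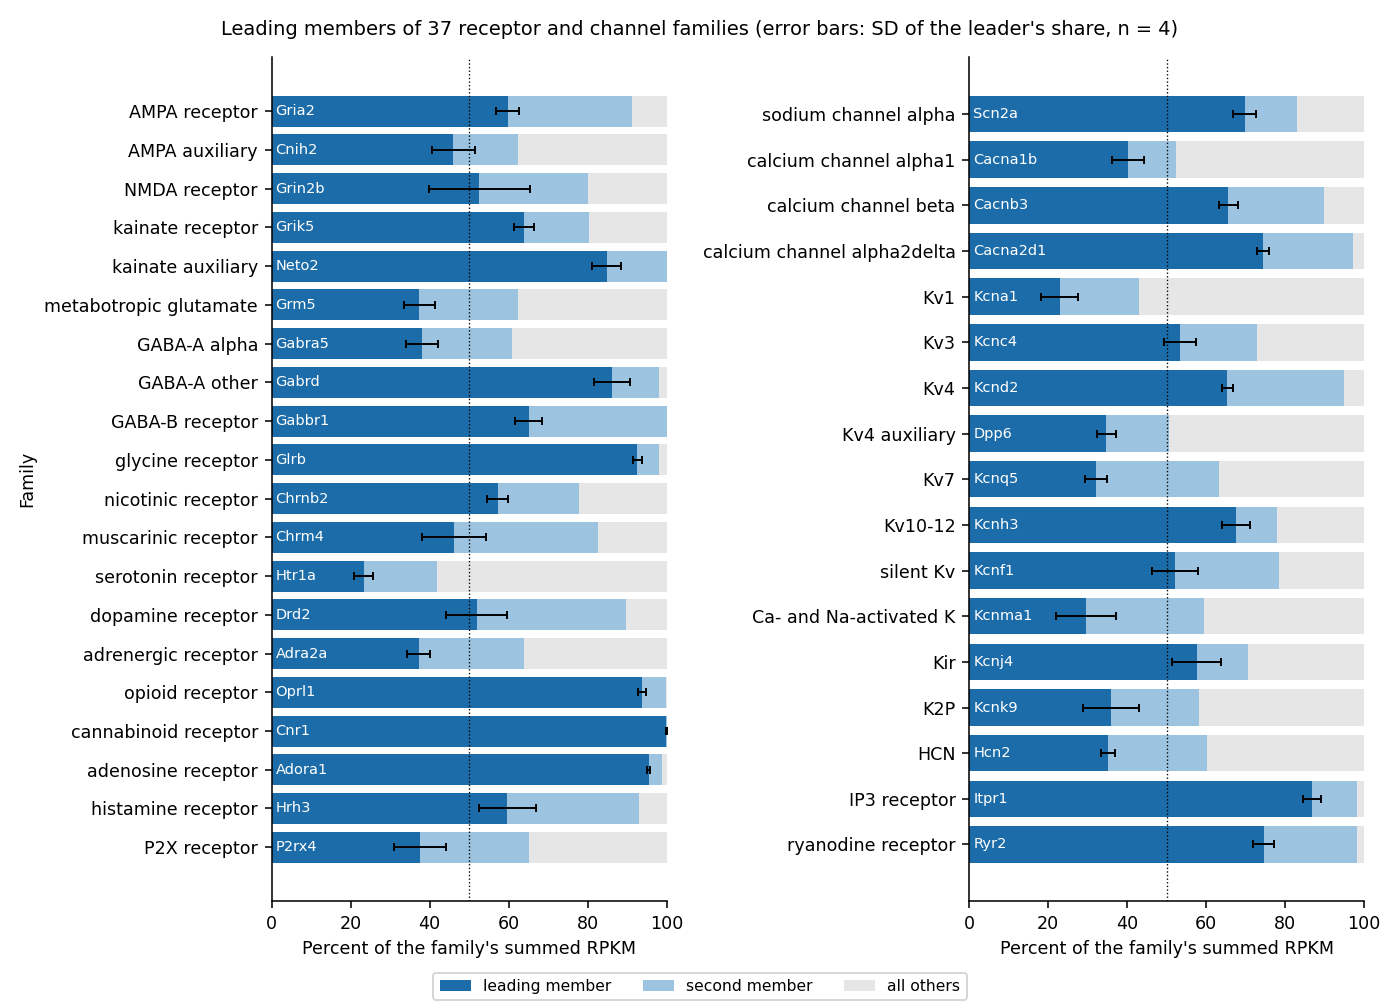
Share of the leading member (dark, with SD over 4 libraries), the second member (light) and all others (grey) in the summed RPKM of 37 receptor and channel families whose first and second members are named in the text. The dotted line marks 50%, which the leader passes in 23 of them. Leading shares run from 99.9% (Cnr1) to 23.3% (Htr1a) and 22.9% (Kcna1).

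Transporters and signalling enzymes had both neuronal and glial members. Slc12a5, the chloride extruder that makes GABA inhibitory, had 46.1, 48.0, 34.1 and 49.0 RPKM, against 13.03, 11.6, 9.66 and 11.2 RPKM for the chloride importer Slc12a2 of young neurons. Slc12a5 was 3.54, 4.12, 3.53 and 4.38 times as high. The vesicular transporter Slc17a7 stood 6.25, 6.15, 6.44 and 6.29 times as high as Slc17a6 (15.4 ± 2.03 RPKM), and of the 11 ratios computed it had the smallest SD relative to its mean. The GABA transporter gene Slc6a11 of astrocytes had 98.9, 105, 81.2 and 77.8 RPKM. Glutamate uptake was divided between Slc1a3 (93.4, 84.8, 93.0 and 72.7 RPKM) and Slc1a2 (102, 65.2, 60.5 and 72.5 RPKM), both glial, with the neuronal Slc1a1 at 16.9 ± 1.95 RPKM. Slc1a3 led by mean RPKM and Slc1a2 by mean CPM. Of the beta subunits of the sodium pump Atp1b1 (266 ± 51.8 RPKM) was the main one, before Atp1b3 (28.4 ± 2.97 RPKM).

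The calmodulin genes Calm3 and Calm2 encode the same protein, and Calm3 was the higher of them in RPKM in each library. Camk2b (98.6, 86.6, 78.8 and 80.8 RPKM), the CaM kinase isoform of young neurons, was 1.76 to 3.08 times as high as Camk2a (55.9, 28.1, 32.1 and 38.7 RPKM), and the ranges of Camk2a and Camk2g (38.0 ± 3.04 RPKM) overlapped. Ppp3ca (119 ± 12.2 RPKM) was the main calcineurin subunit before Ppp3cb (33.3 ± 1.40 RPKM) and Ppp3cc (18.4 ± 1.48 RPKM). At the postsynaptic density Dlg4, the PSD-95 gene, had 108, 102, 87.3 and 98.7 RPKM, Dlg2 49.4 ± 5.84 RPKM and Dlg3 31.0 ± 5.55 RPKM. Shank2 (13.1 ± 2.99 RPKM) and Shank3 (9.79 ± 1.22 RPKM) exceeded Shank1 in control vector 2, 3 and 4, and Shank1 had 18.3, 3.95, 4.56 and 4.31 RPKM and came first in control vector 1, without which its mean was 4.27 RPKM. The neurexins Nrxn2 and Nrxn3 had 33.7 ± 10.9 and 10.4 ± 3.33 RPKM. Of their partners, Nlgn2 (66.5, 38.2, 29.1 and 33.8 RPKM) and Nlgn1 (46.6, 36.1, 34.5 and 45.1 RPKM) shared the first place before Nlgn3 (15.02 ± 4.56 RPKM). On the release side the RNA held Stx1a (116 ± 10.2 RPKM), Snap25 (90.5 ± 9.80 RPKM) and Vamp2 (88.0, 33.1, 44.7 and 36.6 RPKM), and the synapsin Syn2 (48.7 ± 7.25 RPKM) was ahead of Syn1 (55.9, 21.1, 19.4 and 19.3 RPKM). The calcium sensors Syt4 (127 ± 18.8 RPKM), Syt11 (109.7 ± 14.0 RPKM), Syt1 (159, 98.1, 65.8 and 100.2 RPKM) and Syt5 (78.0 ± 10.4 RPKM) led 17 synaptotagmins, ahead of Syt16 (46.6 ± 2.05 RPKM) and Syt7 (16.8 ± 2.65 RPKM), and Syt8 was at 0. Cplx1 (77.9 ± 5.78 RPKM) and Cplx2 (101, 57.1, 39.7 and 57.5 RPKM) were the only complexins at 1 CPM or more. By CPM, which is not corrected for length, the leader was another gene in 4 of the 9 synapse families. There Dlg2, Syt1, Snap25 and Cplx2 led in place of Dlg4, Syt4, Stx1a and Cplx1. In the cytoskeleton Map1b, Mapt (217 ± 20.2 RPKM), Map2 (129.7 ± 18.1 RPKM) and Map1a (50.5 ± 14.6 RPKM) were the main microtubule-associated genes, and Nefl (56.9, 94.2, 88.6 and 136 RPKM) and Ina (79.1, 69.6, 50.8 and 50.1 RPKM) the main neurofilament genes.

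Neuropeptide genes were detected in 17 of 20 cases. Cck, the cholecystokinin gene that cortical projection neurons also express, led with 184, 112, 138 and 222 RPKM, followed by the granule proteins Scg2 (69.0, 55.8, 78.6 and 102 RPKM), Chga (74.6 ± 8.25 RPKM) and Chgb (62.0 ± 11.9 RPKM). This order is by RPKM, and by CPM Scg2 led. Vgf had 7.62, 11.5, 13.7 and 56.9 RPKM, with a mean of 11.0 RPKM without control vector 4. The huntingtin gene Htt had 229, 122, 85.6 and 122 CPM, a mean of 139 ± 62.0, and was highest in control vector 1, where long transcripts were more abundant. Both Xist (309, 96.9, 62.0 and 82.8 CPM, a mean of 80.6 without control vector 1), expressed from the inactive X chromosome of females, and the Y-linked Ddx3y (37.2, 45.5, 53.8 and 45.7 CPM) and Eif2s3y (18.4, 37.0, 34.7 and 20.4 CPM) were present in each library.

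Genes that neuronal activity switches on set control vector 4 apart. Fos, an immediate early transcription factor, had 12.03, 4.71, 7.94 and 85.6 CPM, and its relative Fosb had 1.28, 0.893, 0.775 and 32.0 CPM. The growth factor gene Bdnf had 9.68, 13.8, 14.4 and 102 CPM and the nuclear receptor gene Nr4a2 4.92, 4.29, 4.46 and 31.5 CPM. Of the 17 activity-induced genes listed, 14 were highest in control vector 4 and 13 lay there at 2 times or more the highest other library. Over all genes with a mean of at least 5 CPM, 69 lay that far above the others in this library. For scale, 10491 protein-coding genes had that mean. The share of all genes that were highest in this library is not given here. The list was chosen with earlier results of these data known. The summed CPM of the 17 genes was 374, 295, 349 and 1080. Jun (46.8, 36.2, 39.0 and 32.1 CPM), Egr1 (35.5, 12.7, 15.4 and 26.5 CPM) and Inhba (5.14, 4.53, 3.003 and 4.03 CPM) were highest in control vector 1 instead. Outside the list, 2 later products of activity were named for their values in these libraries and add no separate support. The synaptic pentraxin Nptx2 had 5.69, 8.64, 9.06 and 119.5 CPM, and the prohormone convertase Pcsk1 had 8.99, 16.3, 16.3 and 91.6 CPM. Homer1 had 96.7, 113, 147 and 312 CPM, and its short form, which activity induces, cannot be separated from the long one in gene counts. Without control vector 4 the mean of Fos was 8.23 CPM, that of Fosb 0.984, of Bdnf 12.6, of Nr4a2 4.56, of Nptx2 7.80 and of Pcsk1 13.9 CPM. The source of this difference was not tested.

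The cAMP response element is a short DNA motif through which calcium and cAMP signals act on such genes, so the bases before the start of 4 of them are shown. They come from RefSeq on GRCm38.p6 and run 5′ to 3′ over the 250 bases before the start, with capitals for each match to TGACG or its reverse complement CGTCA.
Fos (chr12:85473640-85473889, plus strand): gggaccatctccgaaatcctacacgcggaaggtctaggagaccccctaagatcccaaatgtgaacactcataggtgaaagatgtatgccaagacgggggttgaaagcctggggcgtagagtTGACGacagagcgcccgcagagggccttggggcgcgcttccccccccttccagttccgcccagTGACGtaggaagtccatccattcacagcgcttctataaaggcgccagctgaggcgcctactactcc
Fosb (chr7:19310046-19310295, minus strand): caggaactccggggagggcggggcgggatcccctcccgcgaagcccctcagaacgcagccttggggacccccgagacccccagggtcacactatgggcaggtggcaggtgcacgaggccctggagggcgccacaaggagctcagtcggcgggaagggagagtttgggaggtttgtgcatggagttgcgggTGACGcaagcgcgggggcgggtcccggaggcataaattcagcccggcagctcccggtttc
Nr4a2 (chr2:57124004-57124253, minus strand): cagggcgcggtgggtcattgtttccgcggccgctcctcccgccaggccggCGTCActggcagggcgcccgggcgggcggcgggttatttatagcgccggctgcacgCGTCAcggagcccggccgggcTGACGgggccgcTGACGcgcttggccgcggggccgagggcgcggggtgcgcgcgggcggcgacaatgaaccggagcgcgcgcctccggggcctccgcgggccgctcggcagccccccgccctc
Pcsk1 (chr13:75089607-75089856, plus strand): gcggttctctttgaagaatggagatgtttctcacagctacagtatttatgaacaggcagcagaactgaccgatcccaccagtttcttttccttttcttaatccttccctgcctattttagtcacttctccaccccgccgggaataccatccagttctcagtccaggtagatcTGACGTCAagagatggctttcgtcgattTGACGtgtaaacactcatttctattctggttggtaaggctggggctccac
Fos had 2 matches, which began 129 and 66 bases before the start. Fosb had 1 match, at 60 bases, Nr4a2 had 4, at 200, 144, 123 and 111 bases, and Pcsk1 had 3, at 78, 75 and 50 bases. Of these 4 genes, Pcsk1 held the full palindrome TGACGTCA, which contains both TGACG and CGTCA. Among all 32851 promoters listed, 508 (1.55%) held TGACGTCA and 5836 (17.8%) held TGACG or CGTCA in the same window. Of the genes at 2 times or more the highest other library in control vector 4, 52 had entries, with 72 promoters. There 5 promoters (6.94%) held the palindrome and 28 (38.9%), of 27 genes, the short motif. Of the 17 activity-induced genes 14 had entries, with 25 promoters. Among these 0 held the palindrome and 13 (52%) the short motif. These 2 sets share genes such as Fos and Bdnf, and the first was defined by its level in this library. Some genes count more than once, such as Bdnf with 7 promoters and Egr2 with 5. The set of all promoters also holds those of genes without counts here. The percents are thus a description, and whether the motif bears on the levels was not tested. The 4 promoters printed were chosen from genes with a match, and others such as Gadd45b and Sertad1 had none. A match is a string of letters and no measure of binding.

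The genes with the widest spread were these same activity genes and a few others. The coefficient of variation (CV, the SD over the mean) had a median of 0.174 over 10742 genes with a mean of at least 5 CPM, and was under 0.2 for 60.1% of them. Fosb, Nptx2, Fos, Bdnf, Sertad1 (1.67, 1.43, 2.47 and 20.8 CPM) and Gadd45b (2.61, 3.99, 5.86 and 39.3 CPM), a stress and activity gene, had their high value in control vector 4, without which Sertad1 and Gadd45b had means of 1.86 and 4.15 CPM. Cdr1 (30.7, 0.774, 3.97 and 1.18 CPM) and Setd1b had it in control vector 1, without which the mean of Cdr1 was 1.98 CPM. Cdr1 lies opposite a transcript that forms a circular RNA, and counts without a stated strand cannot tell the 2 apart. Other genes split the libraries in pairs. Tuba1c had 13.6, 0.119, 0.387 and 28.3 CPM and Mid1 13.4, 0.715, 0.920 and 28.8 CPM, both high in control vector 1 and 4 and low in 2 and 3. Without control vector 4 their means were 4.71 and 5.01 CPM. Gapdh split in another way, with 10.2, 35.4, 9.73 and 36.2 CPM, and mt-Nd2 in the reverse of it, with 297, 71.4, 376 and 73.7 CPM. Part of the sequence of these genes is shared with other genes: 61.0% of the 50-base stretches of Tuba1c, 25.1% of Mid1, 27.2% of Gapdh and 8.19% of mt-Nd2. The steadiest genes were Zbtb14 (24.0, 24.5, 24.1 and 24.0 CPM), Begain (29.5, 29.3, 28.6 and 29.4 CPM), Ak3 (67.6, 68.2, 68.9 and 66.5 CPM), Phkb (38.8, 39.6, 38.1 and 38.4 CPM) and Trappc12 (71.8, 72.9, 70.3 and 70.6 CPM), which differed by a few percent at most.

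Many genes that define other tissues were at 0 counts. Of 21397 protein-coding genes, 4501 (21.04%) had 0 counts in all 4 libraries. They included 933 of 1050 olfactory receptor genes, 271 of 293 vomeronasal receptor genes and 48 of 53 trace amine and taste receptor genes. Of the 39 Hox genes, which pattern the hindbrain, spinal cord and limbs, 27 had 0 counts and 9 had 1 to 3. The other 3 were Hoxa9 (18, 6, 4 and 1 counts), Hoxb13 (1, 2, 10 and 2 counts) and Hoxb9 (4 counts in all), and the highest mean was 0.350 CPM (Hoxa9, 0.210 without control vector 1).

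Whether each 0 shows a silent gene was not tested. Several 0s came in unbroken runs of neighbours, and most genes in those runs are listed a second time in the deposited tables. The second entry lies on an assembly patch, an alternative sequence of the same stretch of genome, at nearly the same coordinates. Pairing was done on 3 or more exon intervals of identical lengths with starts within 10000 bases. It found 54 genes with such a second entry. Of these, 51 had 0 counts, and the second entry had 0 counts in 54 of 54. Of the 44 protein-coding genes among them, 42 (95.5%) had 0 counts, against 14.1% of all 18152 protein-coding genes with 3 or more exon intervals. The 2 with counts were Zdhhc8 (2685) and Ppp2r3d (592). Those at 0 include the vomeronasal receptor gene Vmn2r118, of a class that was mostly at 0. Silent genes and genes whose reads were not counted cannot be told apart by these percents.

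The longest of 3 such runs lies on chromosome 19. It spans 18 protein-coding genes from Gstp1 (chr19:4035407-4037921) to Pold4 (chr19:4231899-4233631), all at 0 counts, of which 16 have a second entry. Ppp1ca, a catalytic subunit of protein phosphatase 1, lies in this run, as do Coro1b and Rps6kb2. The next genes outside the run, Ndufv1 and Ssh3, had 10570 and 587 counts. On chromosome 7, Cacng7, Cacng8 and Cacng6 stand together between chr7:3332955-3368216 and chr7:3424195-3435667, all at 0. Cacng8 encodes an AMPA receptor auxiliary subunit of the hippocampus and cortex. Ndufa3, a little beyond the run, had 5329 counts. Another run on chromosome 16 holds Ranbp1, Trmt2a, Dgcr8 and Tango2, among them the microRNA processing factor Dgcr8 (chr16:18253948-18289249). On chromosome 12 the imprinted gene Dlk1 had 0 counts and the imprinted RNA Rian 3. The patch copies were not aligned here, and whether reads that fit both copies were dropped was not tested. The share of Cnih2 and of the other AMPA receptor auxiliary subunits given above is therefore a share of the members that have counts.

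**Figure D5:**
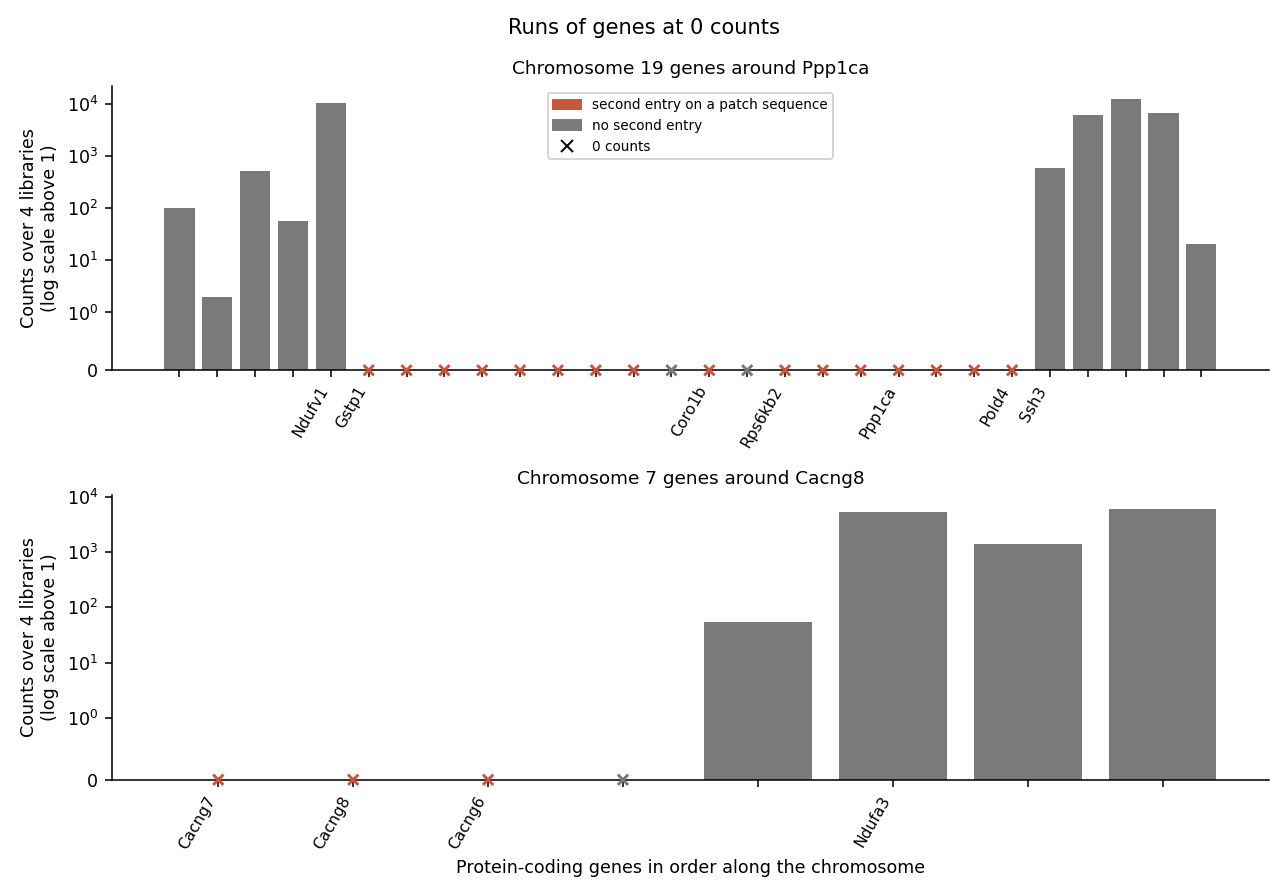
Counts over the 4 libraries (log scale above 1) of protein-coding genes in their order along chromosome 19 (top) and chromosome 7 (bottom). Genes named in the text are labelled, and the lower panel starts at Cacng7. Red marks genes with a second entry on a patch sequence and crosses mark 0 counts. All genes from Gstp1 to Pold4 and from Cacng7 to Cacng6 are at 0, and nearby genes such as Ndufv1 with 10570 and Ndufa3 with 5329 counts are not.

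Genes with near-identical copies elsewhere were also mostly at 0 counts, and which of them are silent was not tested. Of 678 protein-coding genes that share 90% or more of their 50-base stretches with another gene, 594 (87.6%) had 0 counts, against 1538 of 13011 (11.8%) among genes that share none. In the mitochondrial genome mt-Co2, mt-Atp8, mt-Atp6, mt-Co3, mt-Nd3 and mt-Nd4l had 0 counts in each library. Of these 6, mt-Nd3, mt-Nd4l, mt-Atp6, mt-Co3 and mt-Co2 share 98.0 to 100% of their stretches with another gene, and mt-Atp8 shares none. The mitochondrial messenger RNAs with counts shared less: mt-Co1 had 2066, 1289.9, 1950.4 and 944 CPM with 51.1% shared, mt-Nd1 1113, 388, 896 and 331 CPM with 0% and mt-Cytb 935, 321, 614 and 241 CPM with 0%. Gapdh (8.92 ± 5.82 RPKM), Rps18 (0.822 ± 0.129 RPKM), Ppia (11.3 ± 3.75 RPKM) and Pgk1 (15.7 ± 4.14 RPKM), housekeeping genes with many processed copies in the genome, read far below Actb and the elongation factor gene Eef1a1 (610.3 ± 110.1 RPKM). They share 27.2, 32.2, 14.4 and 68.0% of their stretches with other genes, and Eef1a1 shares 59.2%. The receptor and channel leaders named above share little sequence: Gria2 0%, Grin2b 0.00416%, Scn2a 7.87% and Gabra5 0%.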

How the data were processed

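Total RNA of 4 control vector cultures was depleted of ribosomal RNA and sequenced, each library in 2 lanes that were merged, per the labels. STAR 2.0.4b, featureCounts 1.45, Subread and the build GRCm38 appear in the submitters' processing notes without their roles. Not given in the sources used here: whether counting used strand, how multi-mapping reads were handled, and which annotation was counted. The authors deposited, for each library, counts per gene, CPM and RPKM with the gene length. The deposited CPM and RPKM follow from the deposited counts, the library total and the gene length. The 4 libraries held 12668531 to 23357966 counts, which sets the counting error, and p-values play no part because no group comparison was made.

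Levels were summarised as mean and SD over libraries with Python 3.11.15, pandas 2.3.3 and numpy 2.4.6. TMM factors came from edgeR 4.0.16 in R 4.3.3 and were used only as an alternative scaling. The scripts were tested on simulated counts. A gene was detected at a mean of 1 CPM or more, and the CV was taken over genes of 5 CPM or more. A family share is a gene's RPKM over the sum of its family within a library. Sequence sharing is the percent of 50-base stretches of a gene's longest annotated transcript that occur in a transcript of another gene.

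Named genes were the 15 highest by CPM and by RPKM (without predicted genes, pseudogenes and small nuclear RNAs) and family members in order of RPKM until 90% of the family sum, with any at 0 counts. They also include the 3 highest and all 0-count members of each marker list, the 10 highest and 5 lowest CVs, Htt and defining markers, and some genes that this rule names are not reported here. Gria3, Gria4, Oprm1, Nefm, Rbfox3, Dcx, Fosb, Nr4a2, Inhba, Pcsk1, Vgf and the genes cited for absence or shared sequence were added after their values were seen. The members and lists were chosen with earlier results of these data known. Nothing in the labels says whether the 4 samples are separate cultures, so the SD may be partly technical. Alternatives covered the detection minimum, scaling, gene length, leaving out each library and, chosen after seeing the data, control vector 2 and 3 alone and a correction for gene length.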

Additional observations from a re-analysis of the deposited data

Results flagged for a closer look

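For 47 of 372 values examined, 1 library lay far from the other 3. Its gap to the nearest library, as a share of the whole range, exceeded Dixon's 95% critical value for 4 samples. Chance passes that value in about 1 of 20 groups that are independent and not chosen by their values. The values examined include genes named for a high or low CV and genes added after their values were seen. All come from the same 4 libraries. The 47 can therefore not be set against that rate, and they serve as a list only. Control vector 1 was the distant library for 25 of the 47 values and control vector 4 for 16, against 2 for control vector 2 and 4 for control vector 3.

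Control vector 4 was far above the others for activity-induced and related genes: Bdnf (102 CPM), Fos (85.6 CPM), Fosb (32.0 CPM), Gadd45b (39.3 CPM), Nptx2 (119.5 CPM), Nr4a2 (31.5 CPM), Pcsk1 (91.6 CPM), Sertad1 (20.8 CPM) and Vgf (169 CPM). It was also high for Chrm4 (39.1 CPM), Gad1 (147 CPM) and Kcns2 (34.0 CPM), and low for Drd1 (3.08 CPM) and Htr2c (2.92 CPM). In this library the share of Hrh3 in the histamine receptors was 48.8%, with 62.5 to 64.5% elsewhere, and the share of Ryr2 in the ryanodine receptors was 78.5%, with 72.7 to 73.5% elsewhere.

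Control vector 1, the library rich in long transcripts, was far above the others for the receptor, channel and synaptic genes Grik3 (71.5 CPM), Grin2b (2090.2 CPM), Kcnb2 (106 CPM), Kcnc2 (25.2 CPM), Kcng1 (52.2 CPM), Kcnq3 (469.9 CPM), Nlgn3 (203 CPM), Shank1 (152 CPM), Shisa7 (143 CPM) and Syn1 (184 CPM). It was high for the chromatin regulator Setd1b (28.9 CPM). Further high values there were those of Cdr1 (30.7 CPM), Fn1 (61.3 CPM), Foxp2 (4.71 CPM), Gfap (52.3 CPM), Map1a (879 CPM), Map1b (5445 CPM), Mki67 (42.5 CPM), Ttr (0.557 CPM) and Xist (309 CPM). The summed level of the fibroblast and mural list was 13.8 RPKM in this library against 5.18 to 6.64 RPKM in the others. It was low for Pgk1 (21.3 CPM) and Stmn2 (904 CPM), for the neural progenitor list (384 RPKM against 505 to 529 RPKM) and for the share of Oprl1 in the opioid receptors (92.4% against 94.3 to 94.5%).

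Control vector 3 held 14.2% mitochondrial ribosomal RNA, against 6.71 to 7.80% in the others. It was high for Cnih2 (164 CPM) and low for Begain (28.6 CPM) and Chrna7 (13.6 CPM). Control vector 2 was high for Isl1 (0.0596 CPM) and Zbtb14 (24.5 CPM). The value of Isl1 is 1 count, and Zbtb14 and Begain were among the steadiest genes, where a small gap is a large part of the range. The causes of these departures were not tested.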

How the results depend on the processing

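No paired analysis was possible because no result comes from a test and a single group was described. The share of counts from protein-coding genes was 89.1% of all counts and 97.9% once mitochondrial ribosomal RNA was left out. The median CV of 0.174 was 0.101 over control vector 2 and 3 alone, 2 libraries chosen after seeing the data, and 0.124 to 0.192 when 1 library was left out. The other main values moved by less than their limits under the alternatives run. Leaving out each library gave 13120 to 13131 detected genes, 25 to 27 families with a leader over 50% and an astrocyte to pan-neuronal ratio of 49.9 to 54.4%. When 1 library was left out, the leading member was another gene in 1 to 3 of 42 families. These were Kv1, Kv7 and the calcium- and sodium-activated channels. By CPM it was another gene in 6: the muscarinic, dopamine, Kv2, Kv3, Kv7 and leak channel families. With the length of the longest transcript it was another gene in 6: the dopamine, P2X, Kv2, Kv7, calcium- and sodium-activated and leak channel families. The leads of Drd2, Kcnc4, Kcnk9 and P2rx4 thus depend on the length scaling. Outside these families, Dlg4, Syt4, Stx1a, Cplx1, Slc1a3 and Cck led by RPKM but not by CPM. By CPM 31 of the 42 leading shares moved by 1 SD or more, and 24 did with the length of the longest transcript. Of the 18 marker list sums 7 moved that far when mitochondrial ribosomal RNA was left out of the total. With 0 counts replaced by at most 3 counts, 5860 protein-coding genes were absent instead of 4501. Depth limits the low genes: a gene with 0 counts may still be present at up to 0.0408 CPM.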
